A study of Mus musculus with 2 samples.

Results

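The cells described here are cardiomyocytes of the embryonic mouse heart, in the library labelled knockout, in which the cell cycle inhibitor gene Cdkn1a was detected with at least 2 UMIs (unique molecular identifiers, which count captured transcripts). A barcode was taken as a cardiomyocyte when it held at least 3000 UMIs and 500 genes, at most 20% mitochondrial UMIs, under 20% hemoglobin UMIs and at least 8 UMIs of Ttn, the giant sarcomere protein titin, per 10000. This gave 640 cardiomyocytes of 4800 barcodes past the other limits in that library, and of 10039 in both libraries. Of the 640, 113 were Cdkn1a-positive cells with at least 2 UMIs, 413 had 0 UMIs and served as the reference, and 114 had 1 UMI and were in neither set. The cells were thus chosen by their measured Cdkn1a UMIs, so the level of Cdkn1a is a description.

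The study measured single-cell transcripts of E10.5 mouse hearts of 2 genotypes, BubR1fl/fl ; Nkx2.5-cre (het), called knockout, and BubR1+/+ ; Nkx2.5-cre (het), called wildtype. Both genotypes carried 1 allele of the Nkx2.5-cre driver, which is active in the cardiac lineage and not in all cells of the heart. For each genotype 4 hearts were pooled into 1 library after the embryos had been kept on ice for 3 hours, and cells were not assigned to a heart. No group had a second library, so nothing below carries a p-value: cells of 1 library are not replicates, and every interval in square brackets is a 95% interval that covers counting error only.

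Cdkn1a encodes p21, an inhibitor of cyclin-dependent kinases that holds cells out of the division cycle, and is the best known target of the transcription factor p53. Other p53 targets include Mdm2, whose product returns p53 to a low level, and Ccng1 (cyclin G1). Eda2r (a member of the TNF receptor family) and Bax (a pore-forming protein of apoptosis) are also p53 targets. Bub1b encodes BubR1, a kinase-like protein of the spindle assembly checkpoint. That checkpoint holds back chromosome separation until every chromosome is attached, and its loss is known to give daughter cells with gained or lost chromosomes.

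The sequences shown are the 250 bases before the start of transcription of 3 genes, chosen because the results turn on Cdkn1a and on the p53 targets that accompany it; they come from RefSeq for GRCm38.p6 and are written 5′ to 3′ on the strand of the gene. Capitals mark matches to the p53 half-site consensus, a pattern that reads the same on both strands.
Cdkn1a (chr17:29090729-29090978, + strand): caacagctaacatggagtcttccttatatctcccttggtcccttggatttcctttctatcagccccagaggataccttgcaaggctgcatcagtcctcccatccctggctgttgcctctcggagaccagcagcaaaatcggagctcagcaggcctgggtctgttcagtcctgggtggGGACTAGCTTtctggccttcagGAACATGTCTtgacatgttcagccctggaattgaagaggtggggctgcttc
Ccng1 (chr11:40755287-40755536, - strand): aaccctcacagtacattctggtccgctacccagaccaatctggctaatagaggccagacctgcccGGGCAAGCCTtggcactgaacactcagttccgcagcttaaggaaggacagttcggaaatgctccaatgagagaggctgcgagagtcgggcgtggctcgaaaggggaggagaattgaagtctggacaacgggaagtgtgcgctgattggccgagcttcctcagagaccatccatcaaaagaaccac
Mdm2 (chr10:117710759-117711008, - strand): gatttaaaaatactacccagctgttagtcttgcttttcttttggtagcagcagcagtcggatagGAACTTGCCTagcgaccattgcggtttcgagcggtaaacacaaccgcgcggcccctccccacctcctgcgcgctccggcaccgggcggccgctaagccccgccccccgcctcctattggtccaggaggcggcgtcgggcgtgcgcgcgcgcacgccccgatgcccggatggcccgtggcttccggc
Cdkn1a has a second start in the table, and the 250 bases before that one (chr17:29093519-29093768) held no match. In the Cdkn1a promoter shown the matches began 73 and 51 bases before the start, in Ccng1 185 bases before it and in Mdm2 186 bases before it. Of the p53 target list with Cdkn1a, 28 of 36 genes had a promoter in the table, and 11 of their 41 promoters (26.8%) held a match, against 7.13% of all 32851 promoters of the same length. Eda2r, Btg2 and Phlda3 held none in this window. A match describes the letters only; binding was not measured.

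The libraries held 130039314 UMIs (knockout) and 122834180 UMIs (wildtype), and 12 barcodes of at least 3000 UMIs occurred in both. Bub1b, the targeted gene, was still detected in the Cdkn1a-positive cells, at 26.6 CPM (UMIs per 1000000, from 78 UMIs) against 32.5 CPM (281 UMIs) in the reference, a log2 ratio of -0.29 [-0.67, 0.08]. It was at -0.52 with the reference weighted to the depth of the positive cells, -0.73 with at least 3 Cdkn1a UMIs and -1.0 among cells scored as ventricular. In the wildtype library the same selection gave 64.1 CPM against 54.7 CPM. The labels do not give the deleted piece of the gene, and tags at the 3′ end may lie outside it, so Bub1b does not check the genotype of single cells.

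The Cdkn1a-positive cells carried the markers of cardiomyocytes. Tnnt2 (cardiac troponin T), which the selection did not use, stood at 3299 CPM against 3245 CPM in the reference, a log2 ratio of 0.02, and per cell its median was 35.5 UMIs per 10000 (lowest 2.03, highest 90.2) against 34 (0 to 148). Ttn, which the selection did use, had a median of 46.7 UMIs per 10000 (9.13 to 125) against 35.9 (8.02 to 205). Of 28 measured sarcomere genes other than Ttn, none differed by 1.5-fold, against 3.87% of all 9046 measured genes, and the median log2 ratio was 0.06. The cardiac transcription factor Nkx2-5 stood at a log2 ratio of -0.20. The label of cardiomyocyte held for them as a set.

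Cdkn1a-positive cells were deeper than the reference, which bears on every count below. Their UMIs per cell ranged from 5212 to 68851 with a median of 23619, against 3070 to 94972 with a median of 18409, and they had a median of 5048 against 4498 genes. Mitochondrial shares (medians of 9.02% and 8.70%) and hemoglobin shares (0.0884% and 0.0962%) were close. The highest doublet scores (Scrublet, which scores barcodes that resemble 2 merged cells) took in 20 of 113 Cdkn1a-positive cells (17.7%) and 48 of 413 reference cells (11.6%). Free RNA in the droplets could account for at most 4.49 of the 527 Cdkn1a UMIs of the positive cells, an upper bound drawn from hemoglobin.

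Cdkn1a was concentrated in few cells. A Cdkn1a-positive cell held a median of 3 Cdkn1a UMIs (2 to 24), or 1.42 per 10000 (0.290 to 17.3). The 44 cells just inside the limit, with 2 UMIs, had a median depth of 23789 UMIs, and the 114 cells just outside it, with 1 UMI, 20333 UMIs. The 34 cells with at least 5 UMIs held 49.6% of all Cdkn1a UMIs of the knockout cardiomyocytes, at a median depth of 21827 UMIs, which was below that of the cells with 2 UMIs.

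Cells with at least 2 Cdkn1a UMIs made up 17.7% [14.8, 20.8] of knockout cardiomyocytes and 4.78% [3.27, 6.72] of wildtype ones (31 of 648). The 2 libraries differed in depth, so every cell was also thinned to 3000 UMIs, after which a Cdkn1a UMI was present in 67 of 640 knockout (10.47% [8.21, 13.1]) and in 3.86% [2.51, 5.64] of wildtype cardiomyocytes. The summed level was 44.8 CPM [41.4, 48.4] and 17.3 CPM. In knockout erythroid barcodes, where Cdkn1a RNA from free transcripts would also appear, the thinned share was 1.20%, at an unthinned median of 20662 UMIs against 19678 in knockout cardiomyocytes. Endothelial (1.90%), epicardial (1.18%) and mesenchymal (2.12%) knockout cells lay at a like low share, and 51 cells in the macrophage gate reached 11.8% [4.44, 23.9]. Knockout cardiomyocytes thus lay above the erythroid, endothelial, epicardial and mesenchymal cells of their own library and above wildtype cardiomyocytes, and beside the small macrophage gate.

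**Figure D1:**
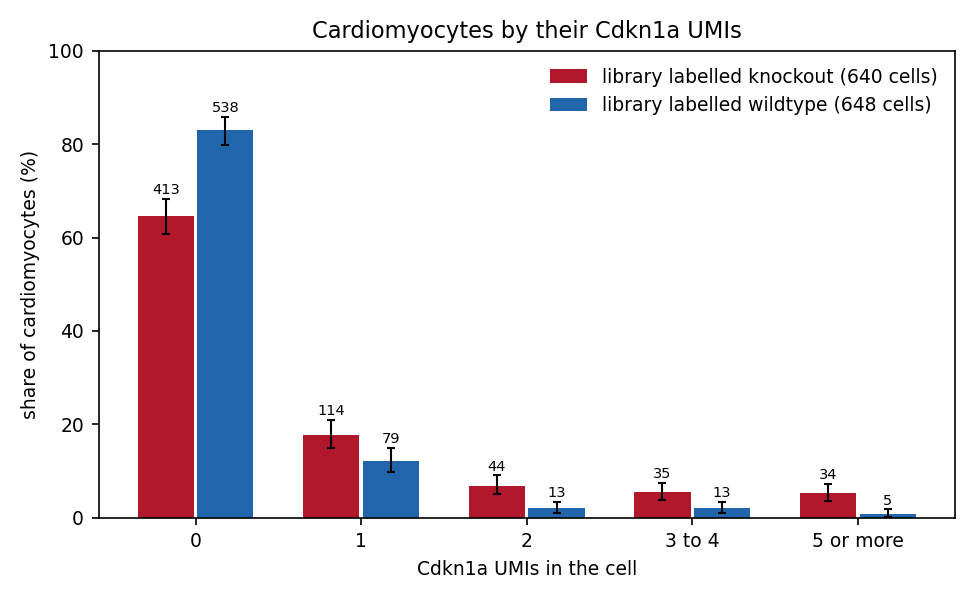
Share of cardiomyocytes (percent, vertical axis) by the number of Cdkn1a UMIs in the cell (horizontal axis) in the knockout (red) and wildtype (blue) libraries, with exact 95% binomial bars that cover counting error only. Of 640 knockout cardiomyocytes 34 had at least 5 UMIs, against 5 of 648 wildtype ones.

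The p53 targets were higher in Cdkn1a-positive cells than in the reference of the same library. Of 35 listed targets other than Cdkn1a, 23 reached 100 UMIs over both sets; 11 of these were at least 1.5-fold higher, none was 1.5-fold lower, 21 had a log2 ratio above 0, and the median log2 ratio was 0.55. Over all 9046 genes measured this way 3.87% lay past 1.5-fold, 1.86% higher and 2.01% lower, with a median of -0.01. With every cell thinned to 3000 UMIs, 6.47% of 2596 measured genes lay past 1.5-fold, 2.27% higher and 4.2% lower, and only 3 listed targets kept 100 UMIs. The 100 UMI minimum was counted over both sets together.

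Ccng1 (ENSMUSG00000020326, mm10 chr11:40748552-40755311) carried the largest number of these transcripts after Bax and Rps27l. It stood at 153 CPM (449 UMIs) in the Cdkn1a-positive cells and 52.9 CPM (457 UMIs) in the reference, a log2 ratio of 1.54 [1.34, 1.73]. Thinned to 5000 UMIs per cell, 44.2% of the positive cells and 20.3% of the reference held a Ccng1 UMI, against 5.09% of erythroid barcodes; before thinning the first pair was 83.2% and 55.4%. In the wildtype library Ccng1 was at 140 CPM in cells with at least 2 Cdkn1a UMIs and 107 CPM in cells with 0. The level in Cdkn1a-positive knockout cells was closest to that of the wildtype cells with at least 2 UMIs, and the reference knockout cells had the lowest level of the 4 sets. Whether the libraries differ beyond sampling of hearts could not be tested with 1 library each.

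Trp53inp1 (mm10 chr4:11156431-11174379), whose product promotes p53 activity, had the largest ratio among the measured targets, at 31.4 CPM (92 UMIs) against 7.87 CPM (68 UMIs), a log2 ratio of 2.0 [1.53, 2.47]. Of its 92 UMIs, 62 were in the 34 cells with at least 5 Cdkn1a UMIs. The 44 cells with 2 Cdkn1a UMIs stood at 7.89 CPM, the level of the reference. Btg2, an antiproliferative gene, was at 41.6 against 15.4 CPM (1.44 [1.07, 1.80]). Zmat3, an RNA-binding p53 target, was at 34.8 against 13.9 CPM (1.33 [0.93, 1.72]). All 3 were at least 1.5-fold higher, as was Phlda3, a repressor of Akt signalling, at 63.2 against 30.4 CPM (1.05 [0.77, 1.33]). Trp53inp1 was also higher in the wildtype library (16.4 against 6.71 CPM), while Btg2 (17.9 against 18.3 CPM), Zmat3 (13.4 against 12 CPM) and Phlda3 (26.8 against 28.7 CPM) were close there. The first value of each wildtype pair, from the cells with at least 2 Cdkn1a UMIs, rests on at most 18 UMIs in 31 cells.

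Mdm2 was 1.5-fold higher, at 52.2 against 34.6 CPM, a log2 ratio of 0.59 [0.30, 0.88]. Bax lay just under 1.5-fold, at 214 against 146 CPM (0.55 [0.41, 0.69]). The DNA polymerase gene Polk (0.99), the nuclease gene Aen (0.79), the kinase gene Plk2 (0.73) and the mitotic regulators Psrc1 (1.09) and Gtse1 (0.62) made up the rest of the 11, on the log2 scale. Psrc1 was at -0.06 after thinning to 3000 UMIs, and Gtse1 at 0.32 when the reference was weighted to the depth of the positive cells. Not every target was higher: Tigar (0.03), Rrm2b (0.01), Ddb2 (-0.10) and Sesn1 (-0.14) were near 0 on the same scale, with intervals that hold 0.

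Among the 12 targets with fewer than 100 UMIs, Eda2r (mm10 chrX:97333840-97377216) stood out in size, with 61 UMIs (20.8 CPM) in the 113 Cdkn1a-positive cells and 15 UMIs (1.74 CPM) in the 413 reference cells, a log2 ratio of 3.58 [2.75, 4.51]. At 5000 UMIs per cell it was present in 11.5% of the positive cells, 0.744% of the reference and 0.175% of erythroid barcodes, and before thinning in 31% and 3.15% of the first pair. The death receptor gene Fas had 9 against 2 UMIs, the pro-apoptotic gene Pmaip1 (Noxa) 12 against 3, and Bbc3 (Puma) 33 against 55, at a log2 ratio of 0.82. Gdf15, a secreted stress factor, had 5 against 1. The reference totalled 8644222 UMIs and the positive cells 2929997, so equal counts in the 2 sets mean a higher level in the positive cells.

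**Figure D2:**
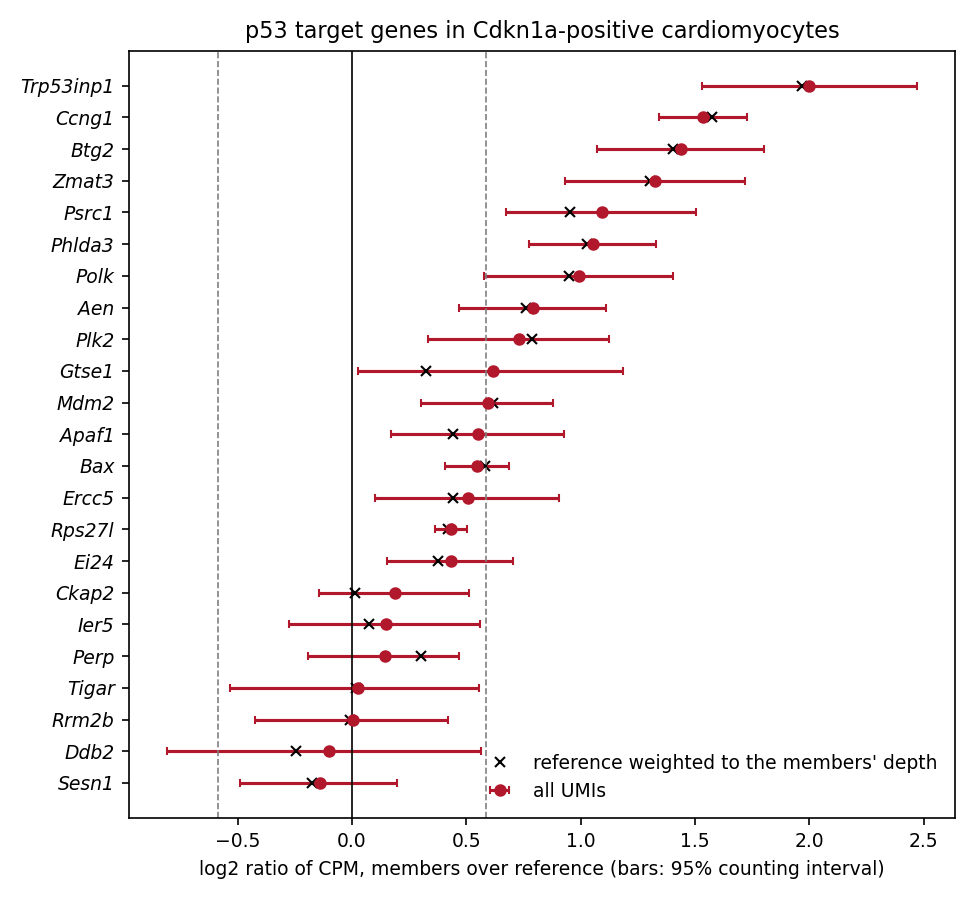
Log2 ratio of Cdkn1a-positive over reference knockout cardiomyocytes (horizontal axis) for the 23 p53 targets with at least 100 UMIs (vertical axis); dots with bars are the ratio and its 95% counting interval, crosses the ratio with the reference weighted to the depth of the positive cells, and dashed lines mark 1.5-fold. Trp53inp1 at 2.0 and Ccng1 at 1.54 lead, and 21 of 23 lie above 0.

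The p53 targets were also higher at equal depth and without the likely doublets. At equal depth, 5000 UMIs per cell, the summed p53 targets had a median of 9 UMIs (2 to 25) in Cdkn1a-positive cells and 6 (1 to 20) in the reference, so the 2 sets overlapped cell by cell. With the highest doublet scores left out the log2 ratios were 1.58 for Ccng1, 2.25 for Trp53inp1, 1.69 for Btg2 and 0.58 for Mdm2. Among cells with ventricular markers only, they were 2.08, 3.04, 2.17 and 0.80. Free RNA could account for at most 7.34 of 449 Ccng1 UMIs and 2.14 of 61 Eda2r UMIs in the positive cells.

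The sum of the p53 targets followed the number of Cdkn1a UMIs in the cell, while single targets did so in part. Summed without the abundant ribosomal gene Rps27l, they stood at 668 CPM [651, 685] in cells with 0 Cdkn1a UMIs, 752 with 1, 796 [745, 849] with 2, 949 with 3 or 4 and 1655 [1571, 1742] with at least 5. The level with at least 5 lay above every other bin, at a median depth that differed little between the bins of 2, 3 or 4, and at least 5 UMIs (23789, 24012 and 21827). Ccng1 went from 52.9 CPM to 75.9, 76.2, 127 and 280 CPM over the same bins, and Eda2r from 1.74 to 5.47, 11.4, 13.2 and 40.8 CPM. Mdm2 did not follow the order at each step, at 34.6, 47.4, 35.9, 53 and 72.5 CPM. Nor did Trp53inp1, at 7.87, 18.2, 7.89, 23.2 and 70.2 CPM. Btg2 was at 15.4, 17.5, 15.8, 37.5 and 79.3 CPM, and Bax at 146, 140, 161, 188 and 308 CPM. Phlda3 and Zmat3 rose at each step. In the wildtype library the summed level was 733, 743, 761, 810 and 1163 CPM [965, 1389], the last from 5 cells. The cells with at least 5 UMIs thus stood farthest from the reference in these transcripts.

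The measured regulators of p53 and the other measured brakes on the cell cycle lay within 1.5-fold of the reference. Over all 9046 measured genes 3.87% lay past 1.5-fold, so none among so few genes is near that share. Of 8 measured p53 regulators none was past 1.5-fold: Trp53 itself was at 57.0 against 61.8 CPM (log2 ratio -0.12) and Mdm4, which restrains p53, at 0.03. Of 6 measured genes among the other kinase inhibitors and pocket proteins none was past 1.5-fold, with Rb1 (the retinoblastoma protein) at 0.58 and Cdkn1c (p57) at 1120 against 1158 CPM. Cdkn2a, a senescence-linked inhibitor, had 0 UMIs in the positive cells and 1 in the reference, and Cdkn2b had 0 and 2. Among these inhibitors no measured gene was 1.5-fold higher in the Cdkn1a-positive cells.

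Cell cycle genes were at like levels in Cdkn1a-positive and reference cells in the main setting, and the size and sign of their differences depended on the setting. Of 43 S phase genes 1 was past 1.5-fold, Cdca7 at a log2 ratio of -0.61, and the list median was -0.02. Over all 9046 measured genes 1.86% were 1.5-fold higher and 2.01% lower, so these counts are near the share of all genes. Of 52 G2/M genes 2 were 1.5-fold higher, Psrc1 and Gtse1, which are also p53 targets, and the median was 0.09. That median turned to -0.09 with the reference weighted to the depth of the positive cells and to -0.36 among cells with ventricular markers. Over 14 alternatives the G2/M median lay between -0.44 and 0.189, and the S phase median between -0.384 and 0.121. Both were lowest with members chosen after thinning. At 5000 UMIs per cell the summed G2/M genes had a median of 19 UMIs (1 to 83) in positive cells and 21 (0 to 78) in the reference.

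Mki67, a marker of cycling cells, was present in 33.6% of Cdkn1a-positive and 27.5% of reference cells at 5000 UMIs per cell (52.2% and 48.9% before thinning), so many Cdkn1a-positive cells held it. Erythroid barcodes, which also cycle, held it in 80.8%, and free RNA from them was not separated. Its level was 121 CPM in cells with 0 Cdkn1a UMIs, 120 with 1, 152 with 2, 141 with 3 or 4 and 98.6 with at least 5. Of the measured spindle checkpoint and kinetochore genes (25, median 0.06) and DNA damage response genes (26, 0.03) none was past 1.5-fold. Nor was any of the 16 measured Bcl2 and apoptosis genes (median 0.15), with medians on the log2 scale. The pro-apoptotic genes Bbc3 and Pmaip1 had too few UMIs to be measured, and both were higher in the Cdkn1a-positive cells, as given above. Of 10 measured senescence secretory genes Igfbp7 was higher, at 23.9 against 10.1 CPM (log2 ratio 1.25 [0.77, 1.72]), and Igfbp5 lower, at 285 against 448 CPM (-0.65), while Il6, Cxcl1 and Mmp3 had 0 UMIs in both sets.

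Autosome shares varied more from cell to cell among Cdkn1a-positive cells than in the reference. Each cell was thinned to 5000 UMIs. The share of its UMIs from each of 19 autosomes was taken without Cdkn1a and genes above 0.5% of all UMIs. For the variance given here, hemoglobin genes under that limit and X-linked genes stayed in the total. The single-cell calls and correlations below left out all hemoglobin and X-linked genes. The variance of the share between cells was 7.82 times the binomial variance in the 113 positive cells and 3.02 times in 403 reference cells, as medians over the autosomes. It was higher in the positive cells for 19 of 19 autosomes, by a median of 2.30 times. This went from 1.04 times for autosome 7 to 3.51 times for autosome 3. At 3000 UMIs it was higher for 17 of 19, with autosome 17 at 0.59 times and autosome 7 at 0.98 times. It was higher for 18 of 19 with the highest doublet scores left out, with members chosen after thinning and with a reference of 0 or 1 Cdkn1a UMIs. Among cells with under 5% hemoglobin UMIs, autosome 7 was at 1.70 times and the median was 2.57 times. In the wildtype library the medians were 5.91 in 30 cells with at least 2 Cdkn1a UMIs and 1.80 in 507 cells with 0, higher for 16 of 19. By the limits given below, 1 of those 30 cells held 13 of their 22 autosomes off, and the variance without it was not taken. Copy numbers were not measured, and whether the shares follow them was not tested.

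**Figure D3:**
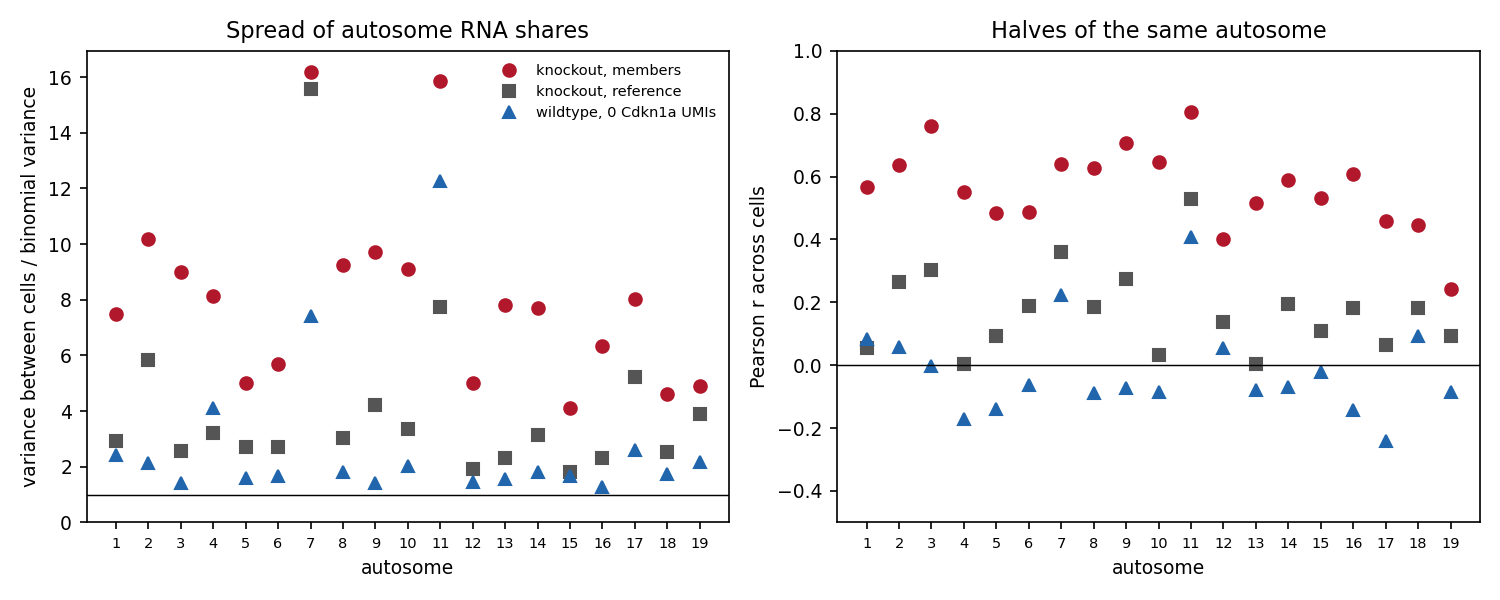
Left, variance between cells of each autosome's share of UMIs divided by the binomial variance (vertical axis) for autosomes 1 to 19 (horizontal axis), in Cdkn1a-positive knockout, reference knockout and wildtype cardiomyocytes with 0 Cdkn1a UMIs; right, Pearson correlation across cells between both parts of the same autosome. The positive cells lie above the reference for 19 of 19 autosomes on the left.

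In single cells, an autosome's share was called off when it was at least 1.3 times or at most 0.7 times the median of the reference cells of the same library, limits chosen after the data had been seen. At least 1 autosome was off in 62 of 113 Cdkn1a-positive cells (54.9% [45.2, 64.2]) and in 114 of 403 reference cells (28.3% [23.9, 33.0]). The share was 25.9% in cells with 1 Cdkn1a UMI, 43.2% with 2, 45.7% with 3 or 4 and 79.4% [62.1, 91.3] with at least 5. At least 3 autosomes were off in 29.2% [21, 38.5] of positive cells and 6.70% [4.46, 9.60] of the reference. The reference cells were not free of such autosomes: in wildtype cardiomyocytes with 0 Cdkn1a UMIs 12.6% [9.86, 15.8] had at least 1 off and 0.592% at least 3. In wildtype cells with at least 2 UMIs, 7 of 30 had at least 1 off (23.3% [9.93, 42.3]). With the highest doublet scores left out the shares were 59.1% of positive and 27.3% of reference cells, and without the genes of the cycle and p53 lists 55.8% and 28.3%.

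The difference was larger for low shares than for high ones. A low autosome was found in 46.0% of Cdkn1a-positive cells against 13.4% of the reference, and a high one in 39.8% against 23.6%. Both kinds occurred together in 31% against 8.68%, and at most 14 autosomes were off in 1 positive cell, against 7 in a reference cell. Shares of at most 0.2 of the reference median occurred 6 times, in 5 positive cells, and in no reference cell. Of the wildtype cardiomyocytes, 1 of 30 cells with at least 2 Cdkn1a UMIs had 4 such shares and none of 507 with 0 had any, and at most 13 autosomes were off in 1 of those 30. Shares between 0.4 and 0.6 occurred in 41 of 113 positive and 31 of 403 reference cells, and shares between 1.4 and 1.6 in 30 and 56 cells. No single autosome accounted for this: autosomes 10 and 16 were each off in 14.2% of positive cells, autosome 18 in 13.3%, and the least affected (1, 4, 5, 12 and 17) in 6.19%, against 1.24% to 6.20% per autosome in the reference.

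Both parts of an autosome moved together in Cdkn1a-positive cells of the knockout library. Each autosome was divided at the position that splits its UMIs evenly, and the shares of the 2 parts were correlated across cells. Pearson's r had a median over 19 autosomes of 0.57 (0.24 to 0.80) in the 113 positive cells and 0.18 (0.00 to 0.53) in the 403 reference cells, while parts of different autosomes had a median of -0.04 and -0.03 over 342 pairs. The wildtype median within an autosome was 0.51 (-0.37 to 0.92) in the 30 cells with at least 2 Cdkn1a UMIs, and -0.07 in cells with 0. Of those 30 cells, 1 held 13 of their 22 autosomes off. Correlations without that cell were not taken, so the wildtype value may rest on it. This division was chosen after the data had been seen. These correlations are descriptions across cells of 1 library at equal depth, and parts of an autosome also share the cell's subtype and the same total.

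**Figure D4:**
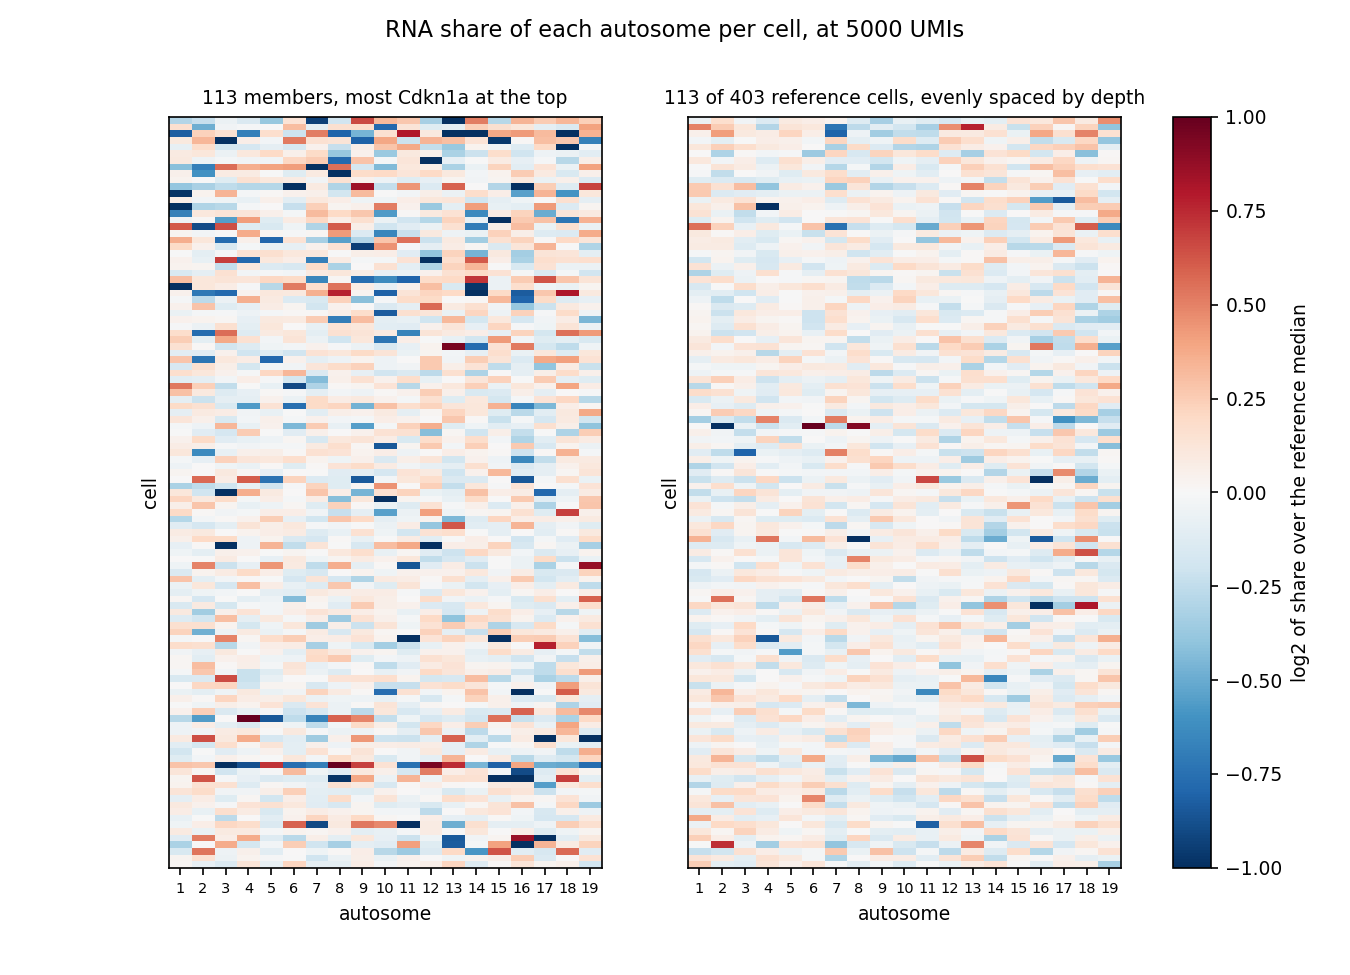
Log2 of each cell's autosome share over the reference median (colour, clipped at 1 in either direction) for autosomes 1 to 19 (columns), in the 113 Cdkn1a-positive cells sorted by Cdkn1a UMIs and 113 of the 403 reference cells taken evenly over their depth (rows), all at 5000 UMIs. Strong colours over a whole autosome are more frequent in the positive cells, where 54.9% have at least 1 autosome off, against 28.3% of all 403 reference cells.

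The cells with the most Cdkn1a show these shares one by one. The cell with 24 Cdkn1a UMIs, of 24898 UMIs in all, had 300 UMIs from autosome 13 where the reference share would give 650, and 1922 from autosome 9 where it would give 1265. The cell with 21 Cdkn1a UMIs had 900 UMIs from autosome 10 against 1569. The cell with 16 Cdkn1a UMIs had 37 UMIs from autosome 13 against 563, and 2790 from autosome 11 against 1567. The cell with 14 had 78 UMIs from autosome 3 against 675. These UMIs are of the whole cell; after thinning to 5000 UMIs, the measure used for calling an autosome off, the low autosome was at 0.438, 0.581, 0.0491 and 0.102 of the reference median in these 4 cells. By contrast, a cell with 13 Cdkn1a UMIs and 43407 UMIs in all had no autosome off.

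Among the Cdkn1a-positive cells, p53 targets were higher where more autosomes were off, in a grouping chosen after the data had been seen. Summed without Rps27l they stood at 854 CPM in 51 cells with none off, 1230 in 29 cells with 1 or 2 off and 1517 in 33 cells with at least 3 off. Ccng1 was at 93.5, 178 and 261 CPM, Eda2r at 10.8, 23.7 and 40.6 CPM, and Mdm2 at 43.0, 53.6 and 71.8 CPM. All 4 values were in the same order, while median depth went the other way, from 26008 to 24800 and 18641 UMIs, and the mitochondrial share was 8.99%, 8.60% and 9.93%. Of the mitotic genes, only Top2a (395, 369 and 264 CPM) and Mki67 (149, 128 and 101 CPM) were summed this way, and both were lowest in the last group. The highest doublet scores took in 14, 4 and 2 of these cells. Cdkn1a itself was at 118, 183 and 318 CPM over these groups, with medians of 3, 3 and 4 UMIs. The order by autosomes off was thus not separated from that by Cdkn1a UMIs.

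Reference cells grouped the same way, by 0 (289 cells), 1 or 2 (87 cells) and at least 3 (27 cells) autosomes off, had p53 targets at 660, 665 and 794 CPM [715, 879]. Ccng1 was at 51.5, 47.3 and 92.5 CPM, Mdm2 at 30.0, 42.2 and 64.5 CPM, and Mki67 at 127, 121 and 40.9 CPM. Eda2r did not follow, with 8, 7 and 0 UMIs (1.26, 3.94 and 0 CPM). In the reference, the group with at least 3 off had the highest sum of these 3 groups, below that of the Cdkn1a-positive cells with none off (854 CPM). What links the shares to the transcripts was not tested.

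**Figure D5:**
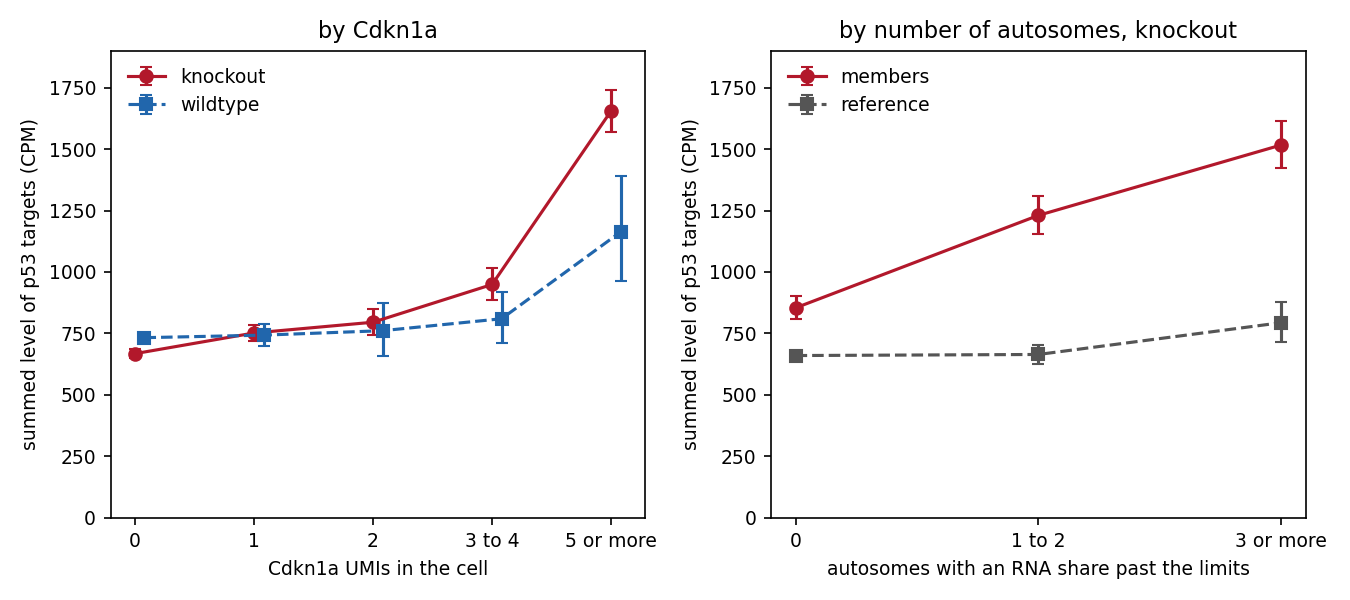
Summed level of p53 targets without Rps27l (CPM, vertical axes, with 95% Poisson bars) by Cdkn1a UMIs per cell in knockout and wildtype cardiomyocytes (left), and by the number of autosomes off in Cdkn1a-positive and reference knockout cells (right). On the left the knockout level reaches 1655 CPM with at least 5 UMIs, and on the right the positive cells go from 854 to 1517 CPM.

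Cdkn1a-positive cells came from every subtype of cardiomyocyte but were few among cells with sinoatrial markers. By the highest of 5 marker scores, 51 had ventricular, 22 atrioventricular canal, 22 outflow tract, 12 atrial and 6 sinoatrial markers. This made up 17.6% of ventricular, 21.6% of atrioventricular canal, 24.2% [15.8, 34.3] of outflow tract, 14.6% of atrial and 7.89% [2.95, 16.4] of sinoatrial cells. The intervals of the outflow tract and sinoatrial shares overlap by a little. Median depth was 20964 UMIs in outflow tract and 16183 in sinoatrial cells, and 19 of the 113 cells lay within 0.1 of their next score.

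Subtype markers also differed between Cdkn1a-positive and reference cells. The pacemaker transcription factor Shox2 had 6 UMIs (2.05 CPM) in Cdkn1a-positive cells against 375 UMIs (43.4 CPM) in the reference, a log2 ratio of -4.40 [-5.86, -3.27], but 1.17 among ventricular-scored cells. The pacemaker channel Hcn4 was at 5.46 against 15.7 CPM (-1.53 [-2.37, -0.77]), and Smoc2, with 0 against 116 UMIs, was at least 13.1-fold lower, taking 3 UMIs over the positive cells as the floor. The calcium sensor gene Vsnl1, at 9.22 against 57.6 CPM (-2.64), was at 1.75 among ventricular-scored cells. The atrial transcription factor Nr2f2, at 35.2 against 61.5 CPM (-0.81), was at 0.82 among them, so both turned direction there. Shox2, Vsnl1 and Nr2f2 are themselves in the lists that score subtype. Their ventricular-scored values thus come from cells chosen partly by these genes, and nothing is concluded from the turn. In atrial markers 3 of 9 were 1.5-fold lower (Nr2f1, Nr2f2 and Stard10), against 2.01% of all 9046 measured genes, with a median of -0.45. The canal markers Tbx2 (0.74) and Rspo3 (0.92) were 1.5-fold higher on the log2 scale.

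The genes with the largest differences, named by a rule of size and interval among genes of at least 50 CPM in either set, included Ccng1 and Phlda3 of the p53 list. Pvt1 (mm10 chr15:62037986-62378096), a long noncoding RNA gene beside Myc, led, at 57.0 CPM (167 UMIs) against 15.6 CPM (135 UMIs), a log2 ratio of 1.87 [1.53, 2.21]. Over 0, 1, 2, 3 or 4, and at least 5 Cdkn1a UMIs it stood at 15.6, 20.4, 24.5, 45.3 and 111 CPM. At 5000 UMIs per cell Pvt1 was present in 17.7% of positive and 5.21% of reference cells, (37.2% and 17.2% before thinning), but also in 22.7% of erythroid barcodes, so free RNA as part of its detection was not separated. In the wildtype library it was at 16.4 against 12.7 CPM.

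Tnc (tenascin C, a matrix protein and a gene of the outflow tract list) was at 94.2 against 34.5 CPM (log2 ratio 1.45 [1.21, 1.69]) and was also higher in the wildtype library, at 40.3 against 12.5 CPM. Rspo3, a Wnt agonist, was at 232 against 123 CPM in the knockout and 58.2 against 29.7 CPM in the wildtype library. In contrast, the maternally expressed noncoding RNA Meg3 was at 380 against 211 CPM (0.84 [0.74, 0.95]) in the knockout and 110 against 115 CPM in the wildtype library. Its imprinted neighbour Dlk1 was at 61.8 against 37.4 CPM (0.73 [0.45, 0.99]) in the knockout and at 8.95 against 27.8 CPM in the wildtype library. Meg3 and Dlk1 were thus higher in Cdkn1a-positive cells of the knockout library and not of the wildtype library, a difference that was not tested.

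The simple epithelial keratins Krt8 and Krt18 were at 90.8 against 34.8 CPM (1.38 [1.14, 1.63]) and 88.4 against 44.5 CPM (0.99 [0.76, 1.22]). Krt8 was present in 31% of positive cells, 12.7% of the reference and 1.4% of erythroid barcodes at 5000 UMIs (56.6% and 33.2% of the first pair before thinning), and free RNA could account for at most 24.4 of its 266 UMIs. Keratins also mark the epicardium: with Krt19 these were the 3 genes past 1.5-fold among 10 of 10 measured epicardial markers, whose sum was 575 against 424 CPM, from 0 to 14 UMIs per positive cell and 0 to 20 per reference cell at 5000 UMIs. Of all 9046 measured genes 1.86% were 1.5-fold higher. The defining epicardial genes Wt1 (0.15), Tbx18 (-0.01) and Tcf21 (-0.06) were near 0 on the log2 scale. With the highest doublet scores left out Krt8 was at 1.53, Wt1 at -0.15 and Tbx18 at -1.20, and among ventricular-scored cells Krt8 was at 0.54.

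Of the lists of other cell types besides the epicardium, no measured gene was 1.5-fold higher in the Cdkn1a-positive cells, against 1.86% of all 9046 measured genes. Sums are over all genes of a list, and ranges per cell are at 5000 UMIs. Endothelial markers (6 of 10 measured, 1 of them, Emcn, lower at a log2 ratio of -0.87) summed to 106 CPM against 138 CPM, with 0 to 7 UMIs per positive cell and 0 to 16 per reference cell, and Cldn5 at 0 in the positive cells. Mesenchymal markers (9 of 10 measured) summed to 863 against 799 CPM, with 0 to 16 and 0 to 33 UMIs per cell, and none was past 1.5-fold. Macrophage, hepatic and neural lists had no gene with 100 UMIs and sums of 8.19, 13.3 and 9.90 CPM against 6.36, 13.5 and 9.83 CPM, with Ptprc, C1qa, Tyrobp and Adgre1 at 0 in the positive cells. Erythroid markers (10 of 11 measured, Hbb-bs and Alas2 1.5-fold lower) were the most abundant of these lists, at 8130 against 8345 CPM. They had a median of 4 UMIs per positive cell and 5 per reference cell, but reached 771 and 977 in single cells, which the limit of 20% hemoglobin allows. Their part in the results was not tested beyond the values without likely doublets, with free RNA subtracted and among cells with under 5% hemoglobin UMIs. Under that last limit 368 genes lay past 1.5-fold, against 350 without it.

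The stress response list held several higher genes, while the metabolic lists had no measured gene past 1.5-fold. In the unfolded protein and integrated stress response, 3 of 18 measured genes were 1.5-fold higher and none lower, against 1.86% and 2.01% of all genes, at a list median of 0.04: Ddit4, an mTOR inhibitor also listed as a hypoxia gene, at 18.8 against 8.45 CPM (log2 ratio 1.15 [0.62, 1.68]), Vldlr at 0.73, and Ddit3 (CHOP) at 0.61. Btg2 was the single gene past 1.5-fold among 9 immediate early genes. Of 15 hypoxia genes Ddit4 was higher and Adm lower (-0.59). Heat shock (12 genes, median -0.10), glycolysis (18, 0.04), nuclear oxidative phosphorylation (27, 0.03), Notch (7, 0.03) and Fgf (7, -0.18) had no measured gene past 1.5-fold. In calcium handling and channels, 1 of 20 measured genes was 1.5-fold higher and 2 were lower, with a median of 0.03. The higher one was Casq2, the calcium store protein calsequestrin, at 19.5 against 8.91 CPM (1.13 [0.61, 1.64]). Casq2 was also higher in the wildtype library, at 110 against 77.1 CPM.

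Among the largest differences in the other direction, several were smaller or turned among ventricular-scored cells. Igfbp5 was at -0.65 and at -0.15 among ventricular-scored cells, the axon guidance receptor gene Robo2 at -0.96 and -0.03 (but -2.45 with the highest doublet scores left out and -1.65 with at least 3 Cdkn1a UMIs), the atrial myosin gene Myh6 at -0.45 and -0.17, and the channel subunit gene Cacna2d2 at -0.70 and 0.39, the last with its direction turned. Cadm1, an adhesion gene, was at -0.66 and -0.50, and Nfatc3 at -0.65 and -0.56, so of these 6 genes the last 2 moved least. Myh6 is itself in the atrial list that scores subtype, and the part of subtype in these differences was not tested. At 3000 UMIs per cell Nfatc3 was at -1.21 and Cadm1 at -0.29. All values in this comparison are log2 ratios of the knockout library. In the wildtype library 19.8% of 8359 genes lay past 1.5-fold, 4.21% higher and 15.6% lower (27.8%, 6.07% and 21.7% at 3000 UMIs), a background from 31 cells, and the p53 list had 2 of 19 measured genes higher and 2 lower, with a median of 0.02.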

How the data were processed

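Single-cell suspensions of pooled E10.5 hearts were sequenced as 10x 3′ libraries, 1 per genotype. The deposited matrices hold whole-number UMI counts for each gene in each barcode. Cell Ranger 7.1.0 and the build mm10 are named for them in the submitters' processing notes, and the matrix headers also name Cell Ranger. The authors' cell filters and annotation release were not given in the sources used here. The members and gene lists were chosen with earlier results of these data known.

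UMIs were summed over the cells of each set and divided by the set's total without Cdkn1a. Ratios are log2 ratios with exact conditional binomial 95% intervals; genes needed 100 UMIs over both sets, and 1.5-fold is the limit of size. Named genes are the 12 in each direction whose interval lies farthest from 0, among genes with 50 CPM in the higher set that keep their direction at 3000 UMIs, and members of the gene lists past that fold or with the most UMIs. Cdkn1a, Ttn, mitochondrial, hemoglobin, ribosomal, X inactivation, Y-linked and unnamed gene models were left out of the 12. Cells were thinned without replacement to 3000, 5000 or 10000 UMIs. Doublets were scored with Scrublet and kept, with their removal as an alternative, since the automatic caller marked 261 of 5966 knockout barcodes (4.38%) but 2 of 7440 wildtype ones (0.0269%) and so had not worked there. A cell's subtype is the highest of 5 marker scores. Genes were placed on autosomes with GENCODE gene models of the same build. Shares carry exact Clopper-Pearson intervals and sums exact Poisson ones. The scripts were tested on simulated data. Tools were Python 3.11.15, numpy 2.4.6, scipy 1.17.1, pandas 2.3.3, scanpy 1.11.5 and matplotlib 3.10.9. Alternatives covered depth, membership, the reference, cell limits, doublets, subtype, weighting, free RNA and the UMI minimum.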

Additional observations from a re-analysis of the deposited data

How the results depend on the processing

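No paired analysis was possible because each genotype has 1 library, and for the same reason no library could be left out. The p53 list kept a median above 0 under all 14 alternatives (0.347 to 0.775), and the ratio of autosome share variances stayed between 1.87 and 2.57 under 10; at 3000 UMIs few p53 targets reach 100 UMIs, which limits that setting. Membership fell to 10.8% of cardiomyocytes with at least 3 Cdkn1a UMIs and 11% when counted after thinning to 10000 UMIs. The 350 genes past 1.5-fold (168 higher, 182 lower) became 168 (59, 109) at 3000 UMIs, 761 (175, 586) with members chosen after thinning, 576 (211, 365) with at least 3 UMIs, 537 (223, 314) by mean per-cell CPM and 1460 (639, 821) with a minimum of 20 UMIs. The S phase median was -0.143 at 3000 UMIs, -0.384 with members chosen after thinning, -0.190 with the weighted reference, -0.135 with at least 3 UMIs, 0.121 under a 10% mitochondrial limit and -0.288 in ventricular-scored cells. The G2/M median was 0.00683 at 10000 UMIs and 0.189 under the mitochondrial limit, and turned to -0.440 with members chosen after thinning, -0.0865 with the weighted reference, -0.106 with at least 3 UMIs and -0.359 in ventricular-scored cells. Bmp and Tgfb targets turned from 0.158 to -0.0144 (3000 UMIs), -0.0868 (after thinning) and -0.0250 (at least 3 UMIs), sarcomere genes to -0.00472 (mitochondrial limit) and endothelial markers to 0.666 (ventricular-scored cells). The wildtype p53 median moved to 0.449 at 3000 UMIs, on 3 genes. Cells with an autosome off were 44.2% of Cdkn1a-positive and 17.9% of reference cells with limits of 1.4 and 0.6, 68.6% and 33.9% among ventricular-scored cells, and 22.7% of the reference at 10000 UMIs; these alternatives were chosen after seeing the data. The cause of these changes was not tested. Depth weighting of the autosome shares was not run. With 31 wildtype cells, single genes there rest on few UMIs.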
